A study of Mus musculus with 6 samples.

Results

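The 10 genes Dusp1, Dusp2, Dusp4, Dusp5, Dusp6, Dusp7, Dusp8, Dusp9, Dusp10 and Dusp16 encode the dual-specificity phosphatases that act on MAP kinases. They were taken by name, with earlier results of these data known, from 19938 mouse genes that have a probe set assigned to a single gene. The 10 genes hold 11 such probe sets, because Dusp8 has 2, and each gene is given by the probe set with the highest mean over the 6 arrays. Expression was measured in C1498, an established mouse line of C57BL/6J background that the labels call acute myeloid leukemia cells. The 3 arrays of the PJ34 group came from C1498 cells kept for 48 h with PJ34, a small-molecule inhibitor of the enzyme PARP-1, at 20 μM, and the 3 arrays of the PBS group from cells kept with PBS for the same time. Both groups grew in the same medium with serum, and the cells carry no engineered allele in the labels. Values are log2 expression values, so that a difference of 1 is a factor of 2. The array medians over the 35556 probe sets were 4.42 to 4.46 with PJ34 and 4.41 to 4.44 with PBS. Any 2 arrays correlated at 0.992 to 0.995, and none duplicated another. Markers of myeloid cells gave little sign of the labelled type: 11 of 12 had a mean below 4.42, the median over all probe sets, and the Fc receptor gene Fcgr3, at 7.02, was the exception. Of 10 T cell markers, 6 lay below that median, among them Cd8a at 4.37 and Cd5 at 4.32, while Cd3e and Cd3g, chains of the T cell receptor complex, had means of 10.47 and 11.08. Zap70, at 7.30, and Cd3d, at 4.76, also lay above the median. The 5 B cell markers measured all lay below it, as did 4 of 7 NK cell markers and 3 of 6 fibroblast markers. The highest means in the last 2 lists were 7.73 for Klrd1 (NK cell) and 5.22 for Col1a1 (fibroblast). No level was scored as absent, because the values hold no detection calls.

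A MAP kinase is switched on when an upstream kinase phosphorylates a threonine and a tyrosine in its activation loop. Dual-specificity phosphatases of this family remove both phosphates and so switch it off again. Many are themselves transcribed in response to MAP kinase activity, which makes them feedback inhibitors, and they differ in where they sit and in which kinases they prefer. Dusp1, Dusp2, Dusp4 and Dusp5 encode inducible nuclear enzymes. Dusp6, Dusp7 and Dusp9 encode cytoplasmic enzymes directed mainly at ERK, and Dusp8, Dusp10 and Dusp16 encode enzymes directed at JNK and p38, the stress-activated MAP kinases. In blood cells, Dusp1 is known as a brake on p38 and JNK after inflammatory and growth signals.

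Promoter sequences of 8 of the 10 genes were found in the RefSeq table of build GRCm38.p6, each with 250 bases before the transcription start and 50 from the start on. The promoters of Dusp1 and Dusp10 are shown because these genes passed the test described next, and stretches of Dusp8 and Dusp5 because they hold the same or another known signal-responsive motif. In Dusp1, on the minus strand at chr17:26508423-26508722, capitals mark the element TGACG on either strand. In Dusp10, on the plus strand at chr1:184034131-184034430, they mark GC boxes. In Dusp8, on the minus strand at chr7:142095325-142095404, they mark the full cyclic AMP response element, and in Dusp5, on the plus strand at chr19:53529045-53529094, the CArG boxes.
Dusp1: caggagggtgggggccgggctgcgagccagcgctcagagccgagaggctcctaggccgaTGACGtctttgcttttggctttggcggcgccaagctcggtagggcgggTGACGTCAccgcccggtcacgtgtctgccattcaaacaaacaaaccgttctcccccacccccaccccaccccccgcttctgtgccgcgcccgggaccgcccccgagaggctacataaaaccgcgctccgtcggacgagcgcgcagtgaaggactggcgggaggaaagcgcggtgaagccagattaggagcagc
Dusp10: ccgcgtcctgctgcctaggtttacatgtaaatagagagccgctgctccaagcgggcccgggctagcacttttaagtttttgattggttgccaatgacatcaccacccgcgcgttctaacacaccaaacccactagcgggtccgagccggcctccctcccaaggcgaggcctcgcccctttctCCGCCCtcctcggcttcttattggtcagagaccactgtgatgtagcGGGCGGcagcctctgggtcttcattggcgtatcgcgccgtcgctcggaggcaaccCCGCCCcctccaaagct
Dusp8: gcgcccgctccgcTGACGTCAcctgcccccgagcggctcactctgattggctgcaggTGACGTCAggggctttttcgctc
Dusp5: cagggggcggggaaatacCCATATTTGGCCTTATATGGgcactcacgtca

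A cyclic AMP response element, TGACGTCA, is a known target of CREB and related factors. It lay at bases -143 to -136 of the Dusp1 promoter, counted back from the transcription start, and at -107 to -100 and -63 to -56 in Dusp8. The other 6 promoters did not hold it, and 1.79% of 32851 promoters of the same length did. Its shorter form TGACG, which each full element holds on both strands, stood also at -191 to -187 in Dusp1 and in the promoters of Dusp2, Dusp5 and Dusp16, against 20.8% of all promoters. CArG boxes, which bind serum response factor, were found in Dusp5 only, at -82 to -73 and -72 to -63, and in 1.63% of all promoters. GC boxes, GGGCGG, were in 7 of the 8 promoters, all but Dusp6, and in 35.7% of all promoters. They can overlap the site of EGR factors, GCGNGGGCG, which was in Dusp2 and Dusp16 and in 5.55% of all promoters. Neither the AP-1 site TGANTCA nor the TATA box TATAAA was in any of the 8, against 7.81% and 13.6% of all promoters. Both strands were searched, and a match shows the letters only, not a bound site. Dusp1, which rose most, and Dusp8, which did not pass the test, both held the full response element, and Dusp10, which rose, held neither it nor its shorter form.

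With PJ34, 2 of the 10 phosphatase genes rose and none fell at an adjusted p under 0.05 from limma, Dusp1 by 1.54-fold and Dusp10 by 1.22-fold. The count was 1, Dusp1 alone, in each fit without 1 array, after median centring and over all 35556 probe sets. The test was fitted to all 23410 probe sets with a gene, of which 1.72% passed as higher and 1.34% as lower. At an unadjusted p under 0.05, 5 of the 10 were higher and none was lower, against 8.95% higher and 7.74% lower of all probe sets. The median log2 fold change of the 10 genes was 0.16, that of all probe sets was 0.00288, and 7 of the 10 values were positive. No member reached the 2-fold change that the study's methods set for its lists.

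**Figure D1:**
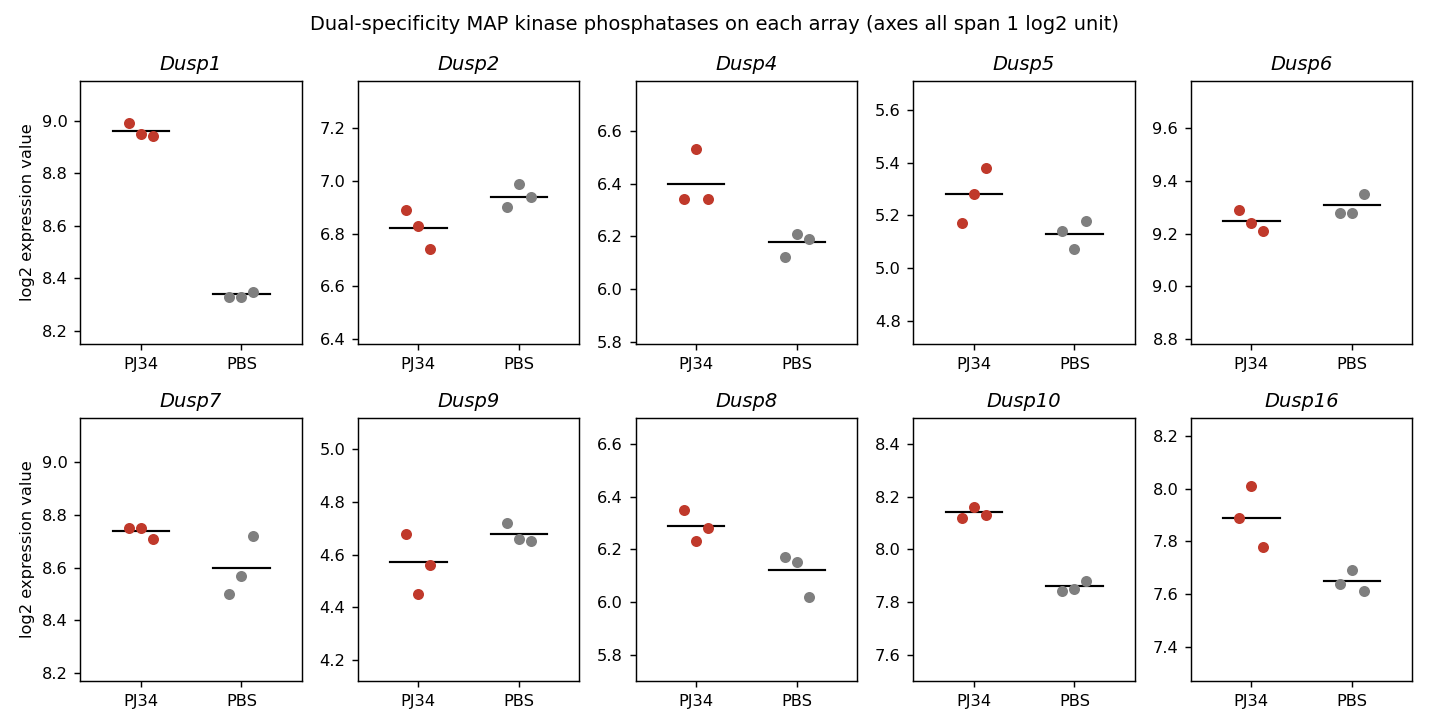
Log2 expression value (vertical axis, spanning 1 log2 unit in each panel) of the 10 phosphatase genes on the 3 PJ34 arrays (red, left) and the 3 PBS arrays (grey, right), with black lines at the group means. The PJ34 points lie clear above the PBS points for Dusp1, from 8.94 up against 8.35 at most, and for Dusp10, from 8.12 up against 7.88 at most, while those of Dusp6 and Dusp7 interleave.

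Among the nuclear enzymes, Dusp1 (also called MKP-1) dephosphorylates p38, JNK and ERK and is an immediate early gene. It read 8.99, 8.95 and 8.94 on the PJ34 arrays, against 8.33, 8.33 and 8.35 on the PBS arrays. The groups did not overlap, and the gap between them, 0.592, was far wider than the SD within either, 0.0298 with PJ34 and 0.00991 with PBS (n = 3 arrays each). The log2 fold change was 0.62 (SE 0.0585, 95% confidence interval 0.49 to 0.76, adjusted p = 0.00193 from limma). By p, Dusp1 ranked 39 among the 23410 probe sets, and 85 of them, Dusp1 included, had a log2 fold change as high or higher. Its exact two-sided permutation p was 0.1, the smallest that 3 arrays against 3 allow.

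Dusp4 (MKP-2), a nuclear enzyme for ERK and JNK, read 6.34, 6.53 and 6.34 with PJ34 and 6.12, 6.21 and 6.19 with PBS. The groups did not overlap, and PJ34 replicate 2 stood above the other two PJ34 arrays. The log2 fold change was 0.23 (SE 0.0745, interval 0.06 to 0.40) and did not pass (adjusted p = 0.16 from limma). Dusp5, which holds ERK in the nucleus, read 5.17, 5.28 and 5.38 with PJ34 and 5.14, 5.07 and 5.18 with PBS. Here the groups touched, since the lowest PJ34 array lay just below the highest PBS array. The difference was 0.15 (SE 0.0745, interval -0.02 to 0.32, adjusted p = 0.38 from limma). Dusp2 (PAC-1), an inducible phosphatase of activated lymphocytes and myeloid cells, read 6.89, 6.83 and 6.74 with PJ34 and 6.90, 6.99 and 6.94 with PBS. It was the only member whose PJ34 arrays all lay below its PBS arrays, by a gap of only 0.00604. The log2 fold change was -0.12 (SE 0.067, interval -0.28 to 0.03) and did not pass (adjusted p = 0.422 from limma). The changes of these 4 inducible nuclear genes thus spread from -0.12 to 0.62.

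No cytoplasmic ERK phosphatase passed the test. Dusp6 (MKP-3), the classic feedback inhibitor of ERK, read 9.29, 9.24 and 9.21 with PJ34 and 9.28, 9.28 and 9.35 with PBS. The groups overlapped, and the log2 fold change was -0.06 (SE 0.0614, adjusted p = 0.696 from limma). Its interval, -0.20 to 0.08, corresponds to 0.87-fold to 1.06-fold. Dusp7 (MKP-X) read 8.75, 8.75 and 8.71 with PJ34 and 8.50, 8.57 and 8.72 with PBS. The PJ34 arrays lay close together and PBS replicate 3 reached their level, so that the PBS group, with an SD of 0.11, was the more spread. The difference was 0.14 (SE 0.0725, interval -0.02 to 0.31, adjusted p = 0.373 from limma). Dusp9 (MKP-4), known mainly from placenta and embryonic tissue, read 4.68, 4.45 and 4.56 with PJ34 and 4.72, 4.66 and 4.65 with PBS. These values lie near the median of all probe sets and carry an unknown share of background. The log2 fold change was -0.11 (SE 0.0748, interval -0.28 to 0.06, adjusted p = 0.518 from limma), and the median of the 3 cytoplasmic genes was -0.06.

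All 3 genes for JNK and p38 phosphatases were higher on every PJ34 array than on any PBS array, and Dusp10 alone passed. Of all probe sets, 12.6% had PJ34 arrays wholly above the PBS arrays, and the second probe set of Dusp8 was not among them. Dusp10 (MKP-5), which inactivates JNK and p38, read 8.12, 8.16 and 8.13 with PJ34 and 7.84, 7.85 and 7.88 with PBS. The arrays of each group agreed closely, with SDs of 0.0202 and 0.0236 for PJ34 and PBS, and a gap of 0.236 lay between the groups. The log2 fold change was 0.28 (SE 0.0585, interval 0.15 to 0.41), and limma's adjusted p of 0.0425 lay just inside the threshold, at a rank of 620. This call was lost in each fit without 1 array: the adjusted p was 0.117, 0.0661 and 0.119 without PJ34 replicates 1, 2 and 3, and 0.13, 0.156 and 0.129 without PBS replicates 1, 2 and 3. It was also lost after centring each array on its median (adjusted p = 0.0804) and when all 35556 probe sets were tested (adjusted p = 0.105), while its log2 fold change kept within 0.26 to 0.29.

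Dusp16 (MKP-7), a JNK phosphatase that shuttles between nucleus and cytoplasm, read 7.89, 8.01 and 7.78 with PJ34 and 7.64, 7.69 and 7.61 with PBS. The PJ34 arrays were spread more widely than the PBS arrays, with SDs of 0.114 and 0.0431, and the groups were 0.0887 apart. Its log2 fold change of 0.25 (SE 0.0747, interval 0.08 to 0.42) was close to that of Dusp10 but did not pass (adjusted p = 0.131 from limma). It did pass without dim probe sets (adjusted p = 0.0445) and in a robust eBayes fit with an intensity trend (adjusted p = 0.031). Dusp8, first described in brain and heart, read 6.35, 6.23 and 6.28 with PJ34 and 6.17, 6.15 and 6.02 with PBS. The groups were 0.0562 apart and the difference of 0.17 (SE 0.0699, interval 0.01 to 0.33) did not pass (adjusted p = 0.26 from limma). The second probe set of Dusp8 was dimmer and disagreed between PJ34 arrays, at 3.88, 4.69 and 4.12 with PJ34 and 4.04, 4.06 and 4.16 with PBS. Its log2 fold change of 0.14 rested on PJ34 replicate 2 and was -0.09 without that array.

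**Figure D2:**
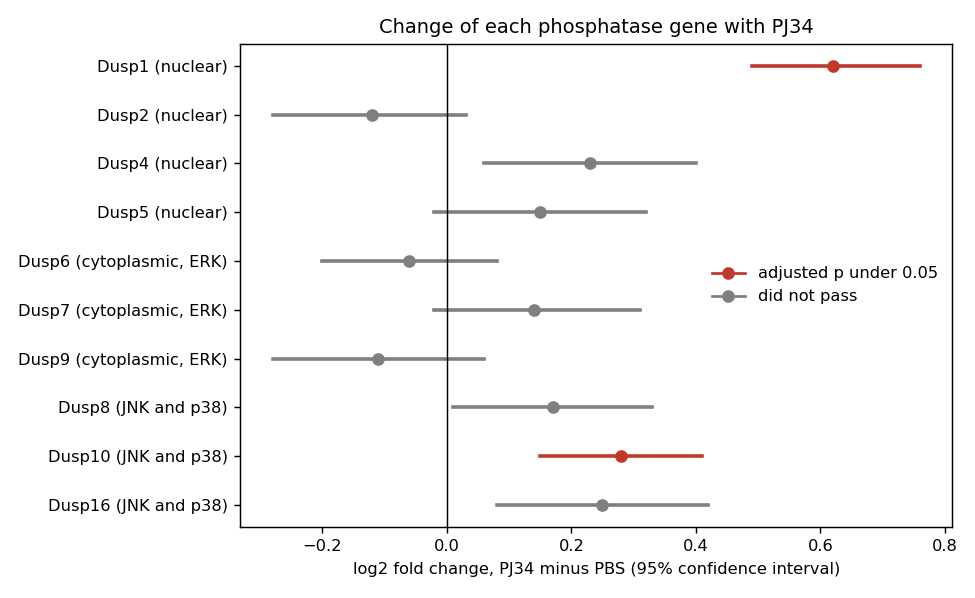
PJ34 minus PBS difference on the log2 scale (horizontal axis) for the 10 genes (rows, with where the enzyme acts), with lines for the 95% confidence interval from limma. Red marks an adjusted p under 0.05 and grey the others. The interval of Dusp1, 0.49 to 0.76, lies above all others, and those of Dusp4, Dusp8 and Dusp16 exclude 0 although these genes did not pass after adjustment.

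Over the family, 5 genes (Dusp1, Dusp4, Dusp8, Dusp10 and Dusp16) had PJ34 arrays wholly above the PBS arrays and 1, Dusp2, wholly below. The shares of all probe sets were 12.6% upward and 10.9% downward. The values of Dusp1 were also set against those of its relatives array by array, as Dusp1 minus each other member. In all 9 pairs this difference was larger on every PJ34 array than on every PBS array, by a mean of 0.34 (against Dusp10) to 0.75 (against Dusp2). For Dusp1 minus Dusp6, for example, the difference averaged -0.29 with PJ34 (SD 0.00964) and -0.97 with PBS (SD 0.0323). For Dusp10 minus the 8 others, the groups separated in 4 pairs, and against Dusp16 the excess was 0.03. Each separated pair had the exact two-sided permutation p of 0.1, the smallest possible, and an adjusted p of 0.131 over the 17 pairs. The pairs were formed because Dusp1 and Dusp10 had passed, and they reuse the same values of these genes. Their counts are therefore descriptive only.

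Of 12 MAP kinases measured, 1 fell and none rose, where 1.34% of all probe sets fell and 1.72% rose. It was Mapk11, which encodes p38 beta, with means of 7.16 for PJ34 and 8.21 for PBS and a difference of -1.05 on the log2 scale (SE 0.0738, limma's adjusted p = 0.000616). The study lists this gene as lower, from the same arrays. None of 25 upstream kinases and RAS pathway genes passed, nor any of 11 scaffold proteins. Without adjustment, limma's p was under 0.05 for 2 upstream genes that were higher and 2 that were lower, and for 1 scaffold gene, which was higher. Among the MAP kinases it was so for 1 that was higher and 2, Mapk11 included, that were lower. The shares of all probe sets at that limit were 8.95% higher and 7.74% lower. The largest differences among the upstream and scaffold genes were 0.40 for Map3k8 (adjusted p = 0.0791 from limma), a kinase upstream of ERK, and 0.19 for Spag9 (adjusted p = 0.262), a scaffold of JNK signalling. Among 8 kinases that MAP kinases activate, 2 were higher and 1 was lower at an unadjusted p under 0.05 from limma. Mknk2, which phosphorylates the translation factor eIF4E, alone passed and rose by 0.41 (SE 0.0672, adjusted p = 0.0172 from limma). Its call was lost without PJ34 replicate 1 or 3 (adjusted p = 0.0714 and 0.0548) or PBS replicate 1 or 2 (adjusted p = 0.0711 and 0.0833), with the methods' t-test (adjusted p = 0.0765) and over all 35556 probe sets (adjusted p = 0.0685). List medians lay between 0.03 and 0.04 for these 4 groups, beside 0.00288 for all probe sets.

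None of 8 further phosphatases of MAP kinases passed, and none was past an unadjusted p of 0.05 from limma in either direction. The largest difference among them was 0.16 for Ppm1b (adjusted p = 0.32 from limma). None of the 16 atypical dual-specificity phosphatases, which share the catalytic fold but mostly lack the MAP kinase-binding domain, passed either. At an unadjusted p under 0.05 from limma, 1 was higher and 2 were lower, against 8.95% and 7.74% of all probe sets. Dusp27 differed most, by -0.24 (adjusted p = 0.259 from limma), with means of 3.23 for PJ34 and 3.47 for PBS, below the median of all probe sets. The median log2 fold change was 0.03 for the 8 further phosphatases and 0.01 for the atypical ones, against 0.16 for the 10 members.

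Another list held 24 genes, mostly of transcription factors, known to respond to MAP kinase signalling. Of the 24, 6 rose and none fell, against 1.72% and 1.34% of all probe sets, and the list median was 0.08. At an unadjusted p under 0.05 from limma, 9 were higher and none was lower, against 8.95% and 7.74% of all probe sets. Fos was at 5.72 with PJ34 and 4.56 with PBS, so that it rose by 1.16 (SE 0.0904) with an adjusted p of 0.000785 by limma. Egr1 was at 6.25 with PJ34 and 5.33 with PBS and rose by 0.92 (SE 0.0921), with an adjusted p of 0.00246. The calls of both held in each limma fit without 1 array and were lost with the methods' t-test (adjusted p of 0.0503 and 0.0719). Fosl2 rose by 0.64 (adjusted p = 0.0105 from limma), a call lost without PBS replicate 2 (adjusted p = 0.0529). The other 3, named after their values were seen, were Egr2 (0.54), Ier5 (0.47) and Fosb (0.46). Egr2 lost its call without PJ34 replicate 3 or PBS replicate 1 or 3 (adjusted p of 0.0511, 0.0537 and 0.0575), and Ier5 without PJ34 replicate 1 or PBS replicate 1 or 2 (0.0549, 0.0576 and 0.0695). Fosb lost its call without PJ34 replicate 1 or 2 (0.072 and 0.0503) or PBS replicate 1 or 3 (0.0803 and 0.0869). Fosl2, Egr2, Ier5 and Fosb also lost their calls with the methods' t-test (adjusted p of 0.111, 0.109, 0.0907 and 0.111) and over all 35556 probe sets (0.06, 0.067, 0.064 and 0.0806). After adjustment, none of the 6 thus passed under the methods' t-test. The study's own limits, a 2-fold change with p under 0.01, name no such adjustment, and the study lists Fos as higher. Of 11 ERK feedback genes of other families, Phlda1 alone rose, by 0.55 (SE 0.0974, adjusted p = 0.0223 from limma), and the list median was 0.03. Its call was lost without PJ34 replicate 2 or 3 (adjusted p = 0.0548 and 0.0768) or PBS replicate 2 or 3 (0.0951 and 0.0888), with the methods' t-test (0.146) and over all 35556 probe sets (0.0971). At an unadjusted limma p under 0.05, 3 of 11 feedback genes were higher and 2 lower, against 8.95% and 7.74% of all probe sets. Spred1 was the lowest of the 11, at -0.276 (adjusted p = 0.0655 from limma). In all, 8 of 115 genes on the 8 pathway lists rose and 1 fell, against 1.72% and 1.34% of all probe sets.

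**Figure D3:**
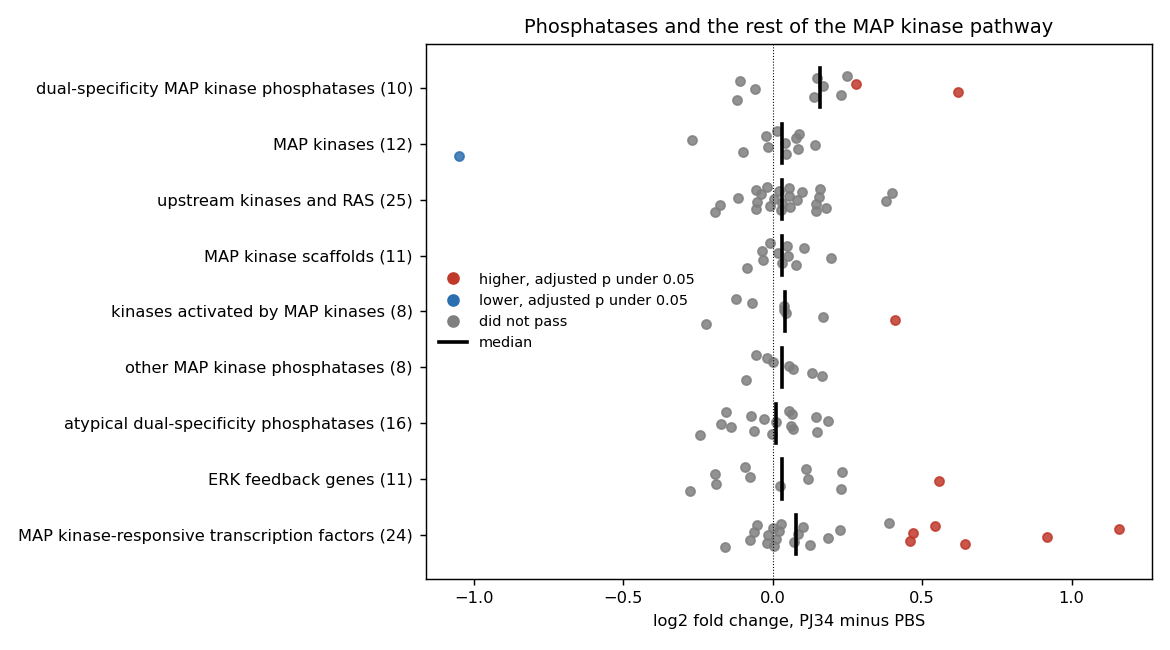
PJ34 minus PBS difference on the log2 scale (horizontal axis) for the phosphatase family (top row) and the measured genes of 8 lists of MAP kinase pathway genes, with the number of genes in brackets. Red and blue points passed as higher or lower at an adjusted p under 0.05 and grey points did not pass. Black bars are medians, 0.16 for the 10 phosphatases and between 0.01 and 0.08 for the lists.

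The genes whose 6 values followed those of Dusp1 most closely were Rgcc, Shisal2a and Cd4. Likeness was measured as the root mean square difference of the deviations from the PBS mean over the 6 arrays, among 19937 other genes. Rgcc, a regulator of the cell cycle, lay at a distance of 0.0294, with 8.22, 8.18 and 8.16 on the PJ34 arrays and 7.55, 7.60 and 7.63 on the PBS arrays. Its log2 fold change was 0.60 (SE 0.0606, adjusted p = 0.0025 from limma). Shisal2a, at a distance of 0.0352, differed by 0.61 (adjusted p = 0.0026), and Cd4, the T cell coreceptor, at 0.0383, by 0.62 (adjusted p = 0.00246). These 3 genes passed in every fit that left out 1 array, but they were chosen for matching Dusp1, so this adds no separate support. The mean of Cd4, 4.14, lay below 4.42, the median of all probe sets, where background makes up an unknown part.

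Some cell type markers moved in the same arrays. Of 10 T cell markers, Cd4 rose and none fell, against 1.72% and 1.34% of all probe sets. Without adjustment, limma's p was under 0.05 for 3 that were higher and 1 that was lower, Zap70, with -0.261 (adjusted p = 0.064). At that limit, 8.95% of all probe sets were higher and 7.74% lower. The mean log2 value over the list was 5.89 to 5.98 on the PJ34 arrays and 5.85 to 5.91 on the PBS arrays. Of 7 NK cell markers, the protease gene Gzma rose by 0.90 (SE 0.14, adjusted p = 0.0139 from limma), and the list mean was at least 4.12 on each PJ34 array and at most 4.06 on each PBS array. The other markers of this list changed by -0.175 (Eomes) to 0.0769 (Klrk1) and none passed, so the list mean moved mainly with Gzma. The call of Gzma was lost without PJ34 replicate 1 or 2 (adjusted p = 0.0519 and 0.0513) or PBS replicate 2 or 3 (0.0635 and 0.0598), with the methods' t-test (0.146) and over all 35556 probe sets (0.0781). None of the 12 myeloid, 5 B cell or 6 fibroblast markers passed the limma test. At an unadjusted p under 0.05, 2 myeloid markers were higher and 1 lower, no B cell marker was in either direction, and 1 fibroblast marker was lower. The largest differences in those lists were 0.45 for Itgam (adjusted p = 0.116), 0.09 for Cd79a (adjusted p = 0.627) and -0.24 for Pdgfra (adjusted p = 0.24). In bulk RNA, a change in the number of cells of a kind cannot be told apart from a change in RNA per cell, and the part of either in the rise of Dusp1 and Dusp10 was not tested.

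Of the 10 genes, Dusp1 alone passed under every alternative tried. Its adjusted p ran from 2.97e-06 to 0.0196 and its log2 fold change from 0.60 to 0.64 over 14 alternatives. Dusp10 passed in 5 of 14 (adjusted p of 0.00437 to 0.156) and Dusp16 in 2 of 14 (0.031 to 0.334). Dusp2, Dusp4, Dusp5, Dusp6, Dusp7, Dusp8 and Dusp9 passed in none, and Dusp4 came closest, at 0.0583 without dim probe sets. No member changed direction under any of them. The Dusp4 difference was 0.16 without PJ34 replicate 2 and that of Dusp16 was 0.19.

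**Figure D4:**
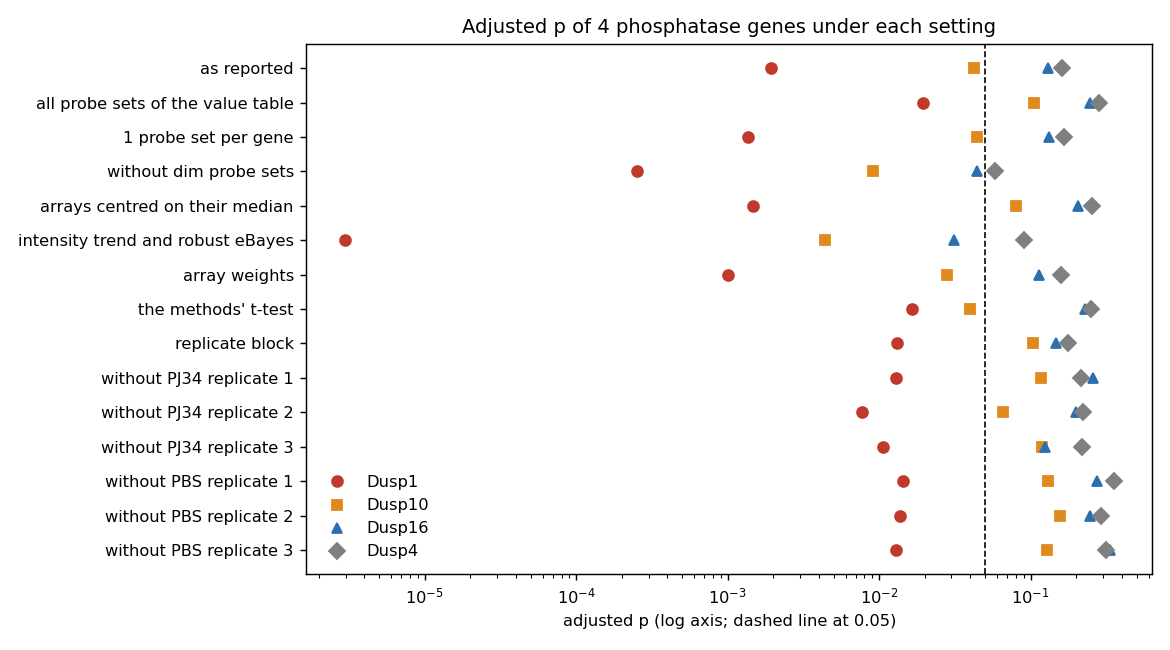
Adjusted p (horizontal log axis, with a dashed line at 0.05) of Dusp1, Dusp10, Dusp16 and Dusp4 under the reported setting and 14 alternatives (rows). Dusp1 lies left of the line in every row, and Dusp10 lies right of it in all 6 rows that leave out an array.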

How the data were processed

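RNA from 3 PJ34 and 3 PBS samples of C1498 cells was labelled and hybridised to Affymetrix Mouse Gene arrays. The authors summarised the arrays by RMA in Affymetrix Expression Console 1.3.1 (tool and version from the submitters' processing notes) and deposited the resulting log2 expression values, which RMA corrects for background and quantile normalizes. Precision is limited by 3 arrays per group. The study describes 3 independent experiments, while the labels do not say how replicates were separated, so p-values measure the spread between these arrays, which may be technical. The platform gene table gives 21789 probe sets a single gene, 1621 several genes and 12146 none. The 23410 with a gene were fitted with limma 3.58.1 in R 4.3.3 (PJ34 minus PBS, eBayes, Benjamini-Hochberg), checked on simulated data. Permutation tests used SciPy 1.17.1.

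The members and gene lists were chosen with earlier results of these data known. Named genes are the members, up to 3 passing genes per direction and list by size of change (or the largest difference where none passed), and the 3 genes closest to the member of lowest p. Alternatives were other sets of tested probe sets, centring, variance models, array weights, the methods' t-test, a replicate block, leaving out each array, and averaging a gene's probe sets. The genome build behind the probe sets is not given in the sources used here. Symbols of array probe sets are those of the platform annotation, and promoters were matched by symbol to RefSeq.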

Additional observations from a re-analysis of the deposited data

How the results depend on the processing

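Of 141 values of the 10 genes under alternatives, 130 kept their direction and side of the threshold, 9 lost their call, all of Dusp10, and 2 gained it, both of Dusp16. Of 274 values of the other named genes, 230 were unchanged in this sense, 41 lost their call and 3 gained it. The second probe set of Dusp8 turned negative with array weights (-0.01) and without PJ34 replicate 2 (-0.09). Over the 6 fits without 1 array it ran from -0.09 to 0.32. Lost calls without 1 array came from fits on 5 arrays, and the cause of the other changes was not tested.

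Among the 10 genes, 2 rose as reported and 1 rose when all probe sets of the value table were tested, after median centring, with the replicate block and in each fit without 1 array, and 3 rose without dim probe sets and with an intensity trend and robust eBayes. No member fell in any setting. The counts over all probe sets, 402 higher and 314 lower, moved more: 112 and 76 over the whole value table, 891 and 776 without dim probe sets, 1008 and 920 with an intensity trend and robust eBayes, and 78 and 62 with the methods' t-test after adjustment. At the methods' own limits, a 2-fold change with an unadjusted p under 0.01, that t-test called 17 higher and 9 lower, no member among them. Array weights gave 542 and 564, and the fits without 1 array ran from 143 to 281 higher and from 79 to 320 lower. Median centring gave 332 and 365, fewer higher and more lower than reported, and it shifted log2 fold changes by -0.0204.

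Replicate numbers were shared between the groups, but deviations of same-numbered arrays correlated at -0.01, 0.13 and -0.01, so the numbers were not treated as pairs. With the replicate block, 219 probe sets were higher and 140 lower, Dusp1 passed (adjusted p = 0.0132) and Dusp10 did not (adjusted p = 0.103). Mknk2 (0.0558) and Phlda1 (0.0654) also lost their calls with it. With 3 arrays per group, differences of 0.23 in Dusp4 and 0.25 in Dusp16 did not pass although their intervals excluded 0, so smaller differences in the other members could go undetected.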
